A study of Homo sapiens with 6 samples.

Results

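Matrix glycoproteins, laminins and matrix remodelers were examined as 1 group of genes in human embryonic stem cells depleted of DDX18, a nucleolar helicase of the DEAD-box family. The group consisted of 39 gene names covering noncollagen matrix, crosslinking enzymes, proteases and their inhibitors. A gene entered by its symbol in the deposited expression table, which gave 38 of the 39 names among 17929 genes. FBN1 had no row under its symbol and was not analysed here. The expression data were 6 RNA-seq libraries from the established human embryonic stem cell lines H9 and HES2, with 1 library for each line and hairpin. The compared groups were shDDX18#1 and shDDX18#3, a pair of short hairpins against DDX18, and shLuc, a control hairpin against luciferase. All cells were infected with virus, were kept on irradiated feeder cells (mouse embryonic fibroblasts) and were taken on day 4. Replicate 1 of each hairpin was H9 and replicate 2 was HES2, and the labels do not tell whether cultures were separate. A p-value here therefore reflects the spread of the libraries fitted, at most 6, which may be technical. The main comparison pools the hairpins as replicates of knockdown, so its spread also holds differences between hairpins and between lines in the response.

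The extracellular matrix is a meshwork of secreted proteins to which cells attach through integrins and other receptors. Basement membranes are sheets built from laminin trimers of an alpha, a beta and a gamma chain, joined to collagen IV by nidogens and to proteoglycans such as perlecan and agrin. Interstitial matrix is organised around fibronectin, collagens and elastic fibres, is stiffened by lysyl oxidases that crosslink collagen and elastin, and is cut by metalloproteinases that TIMP proteins inhibit. Undifferentiated human embryonic stem cells attach well to laminin and are commonly cultured on it, while fibronectin-rich interstitial matrix is typical of mesenchymal cells and fibroblasts.

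The sequence just before the start of transcription was read for members with an entry, whether or not their expression differed in the comparisons below. It was taken from RefSeq on GRCh38.p14, where 27 of the 38 members had an entry and some had more than 1, 31 entries in all. The 250 bases before the start are printed 5′ to 3′ on the gene's strand for FN1 and for the member with the smallest p in each role group that had a single entry. Capitals mark matches on either strand to the GC box bound by SP family proteins (GGGCGG), the TEAD motif (GGAATG) and the AP-1 motif (TGANTCA).
FN1, chr2:215436069-215436318, minus strand: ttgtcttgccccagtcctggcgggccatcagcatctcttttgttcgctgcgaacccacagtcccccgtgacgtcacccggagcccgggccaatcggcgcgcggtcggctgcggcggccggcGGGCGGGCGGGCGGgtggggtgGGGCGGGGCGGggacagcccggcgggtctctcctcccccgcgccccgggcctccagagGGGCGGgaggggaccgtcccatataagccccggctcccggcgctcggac
TNC, chr9:115118158-115118407, minus strand: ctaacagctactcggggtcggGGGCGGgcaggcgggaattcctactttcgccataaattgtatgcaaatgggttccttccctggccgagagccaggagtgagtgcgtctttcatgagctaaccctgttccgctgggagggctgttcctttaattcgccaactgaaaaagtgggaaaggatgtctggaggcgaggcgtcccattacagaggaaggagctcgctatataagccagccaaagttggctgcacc
BGN, chrX:153494730-153494979, plus strand: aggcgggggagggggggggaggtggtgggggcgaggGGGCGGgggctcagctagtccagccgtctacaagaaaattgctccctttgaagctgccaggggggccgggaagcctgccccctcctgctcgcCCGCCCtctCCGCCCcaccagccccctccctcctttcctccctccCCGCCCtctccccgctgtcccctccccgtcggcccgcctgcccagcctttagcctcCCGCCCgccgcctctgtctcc
EFEMP2, chr11:65872801-65873050, minus strand: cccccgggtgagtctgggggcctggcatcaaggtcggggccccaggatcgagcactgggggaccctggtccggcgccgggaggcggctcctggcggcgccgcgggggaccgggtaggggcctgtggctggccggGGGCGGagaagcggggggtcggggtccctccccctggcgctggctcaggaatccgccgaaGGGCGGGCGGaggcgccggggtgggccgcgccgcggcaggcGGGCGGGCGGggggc
LAMB2, chr3:49133051-49133300, minus strand: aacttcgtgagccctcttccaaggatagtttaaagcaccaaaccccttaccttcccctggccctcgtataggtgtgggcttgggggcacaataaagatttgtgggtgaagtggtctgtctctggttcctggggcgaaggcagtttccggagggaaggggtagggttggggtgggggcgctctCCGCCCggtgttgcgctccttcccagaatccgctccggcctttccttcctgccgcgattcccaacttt
LOXL1, chr15:73926212-73926461, plus strand: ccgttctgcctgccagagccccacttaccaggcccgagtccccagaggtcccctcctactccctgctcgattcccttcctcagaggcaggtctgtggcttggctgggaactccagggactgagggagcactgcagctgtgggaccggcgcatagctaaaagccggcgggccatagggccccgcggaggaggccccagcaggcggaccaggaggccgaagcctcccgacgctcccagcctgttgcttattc
TIMP3, chr22:32801455-32801704, plus strand: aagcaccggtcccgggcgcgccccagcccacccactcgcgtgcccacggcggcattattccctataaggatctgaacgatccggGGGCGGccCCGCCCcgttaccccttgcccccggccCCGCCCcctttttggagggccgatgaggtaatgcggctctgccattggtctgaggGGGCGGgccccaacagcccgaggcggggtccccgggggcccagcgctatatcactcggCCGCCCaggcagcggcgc

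The capitals in these 7 windows are all GC boxes: 6 overlapping or single matches in FN1, 5 each in BGN, EFEMP2 and TIMP3, 1 each in TNC and LAMB2, and none in LOXL1. Across all 31 entries of members, 23 (74.2%) held a GC box, against 42.6% of the 35116 promoters of the same length in the table. A TEAD motif was found in 4 of the 31 entries (12.9%), against 11.9% of all promoters, and those entries belonged to SPARC, THBS1, THBS2 and LOXL3. An AP-1 motif was found in 1 (3.23%), that of POSTN, against 6.57% of all promoters. Of the 23 entries of members that rose in the main comparison below, 19 held a GC box, 2 a TEAD motif and 0 an AP-1 motif. THBS2, LOXL3 and POSTN were not called there. These are letter matches in the windows searched and nothing was measured about binding.

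Library totals ran from 2668179 to 4271741 reads, so 1 read was worth 0.224 to 0.408 units of normalized signal (reads per 1e+06 of effective library size, called signal below) and a floor of 3 reads lay between 0.671 and 1.23. DDX18 itself was at 39.3 and 60.4 in the HES2 knockdown libraries (shDDX18#1, shDDX18#3), against 161 in HES2 shLuc, and 19.2 and 47.3 in those of H9, against 153 in H9 shLuc, a log2 change of -2.0 (SE 0.35, limma adjusted p = 0.0109). Markers of undifferentiated cells were all detected in every library, and 8 of 12 fell with knockdown, beside 6.26% of all genes tested. Of 20 fibroblast markers that are not members, 14 rose, beside 9.6% of all genes tested, and none stood at 0 in any library. Their summed share of reads was 0.902% and 0.755% in HES2 shDDX18#1 and shDDX18#3, against 0.249% in HES2 shLuc, and 4.52% and 1.99% in H9 shDDX18#1 and shDDX18#3, against 0.524% in H9 shLuc. Of 5 of these markers set apart as typical of fibroblasts or other mesenchymal cells, PRRX1, PDGFRB and DDR2 rose while TWIST2 and THY1 were not called. Those 5 summed to a signal of 206 and 264 in the HES2 knockdown libraries, against 350 in HES2 shLuc, and to 743 and 436 in those of H9, against 263 in H9 shLuc. In both shLuc libraries most of the sum was THY1, which is also present on pluripotent cells. The 4 without it summed to 106 and 87.4 in the HES2 knockdown libraries, against 24.8 in HES2 shLuc, and to 447 and 172 in those of H9, against 31.6 in H9 shLuc. Among markers of other lineages, 4 of 7 for endoderm rose (HNF4A, GATA6, GATA4 and SOX17). So did CDH5 of 4 for endothelium, RUNX1 of 2 for blood and GATA3 of 5 for trophoblast and amnion. These counts too stand beside 9.6% of all genes, and 1 call in so short a list cannot be told from that share. No other marker of these lists was called. In the endothelium list 2 estimates were above 0 and 2 below, among them KDR at -0.76. Summed endoderm signal was 843 and 465 in the HES2 knockdown libraries, against 141 in HES2 shLuc, and 596 and 336 in those of H9, against 171 in H9 shLuc. The part of these cell types, and of reads from the mouse feeders, in the results below was not tested.

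The question of the main comparison was which matrix genes differ in level when DDX18 is depleted. Of the 38 matrix genes, 24 rose with knockdown, none fell and 14 were not called, at an adjusted p under 0.05 (limma, cell line as a block). Across all 17768 genes tested, 9.6% rose and 6.26% fell. Their median log2 fold change was 1.79 on the log2(signal + 1) scale used throughout, beside -0.02 over all genes tested, and 35 of the 38 estimates were above 0. At an unadjusted p under 0.05, 30 members were higher and 1, EFEMP1, was lower, beside 17.5% and 15.7% of all genes. On the recovered reads edgeR called 27 higher, beside 9.66% of all genes, and DESeq2 28, beside 11.8% of the genes to which it gave an adjusted p, and both called 0 lower. With no replicate block for the cell line, limma called 15 higher, beside 4.45% of all genes. In bulk RNA more cells of a type that makes a transcript and more transcript per cell cannot be told apart.

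In each knockdown library set against the shLuc library of its own line, the median of the members was 1.53 in HES2 shDDX18#1, 1.02 in HES2 shDDX18#3, 2.51 in H9 shDDX18#1 and 1.43 in H9 shDDX18#3. All 4 knockdown libraries lay above both shLuc libraries for 25 members, a pattern shown by 19.8% of all genes, and below both for EFEMP1 alone, a pattern shown by 20.9%. Each knockdown library lay above the control of its own line for 28 members, beside 25.8% of all genes. The count moved most where a control library was left out. Without the HES2 shLuc library 7 members rose, 5 of them among the 24, beside 1.06% of all genes, and without the H9 shLuc library 12 did, all among the 24, beside 2.51%. Leaving out a knockdown library gave 20 to 25. Fitted on the 3 libraries of 1 line, an alternative added after the data were seen, 25 rose in HES2, beside 9.07% of all genes, and 19 in H9, beside 2.66%. Such a fit has 1 control library and takes the different hairpins as its only replicates, so its calls have no spread among controls behind them.

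**Figure D1:**
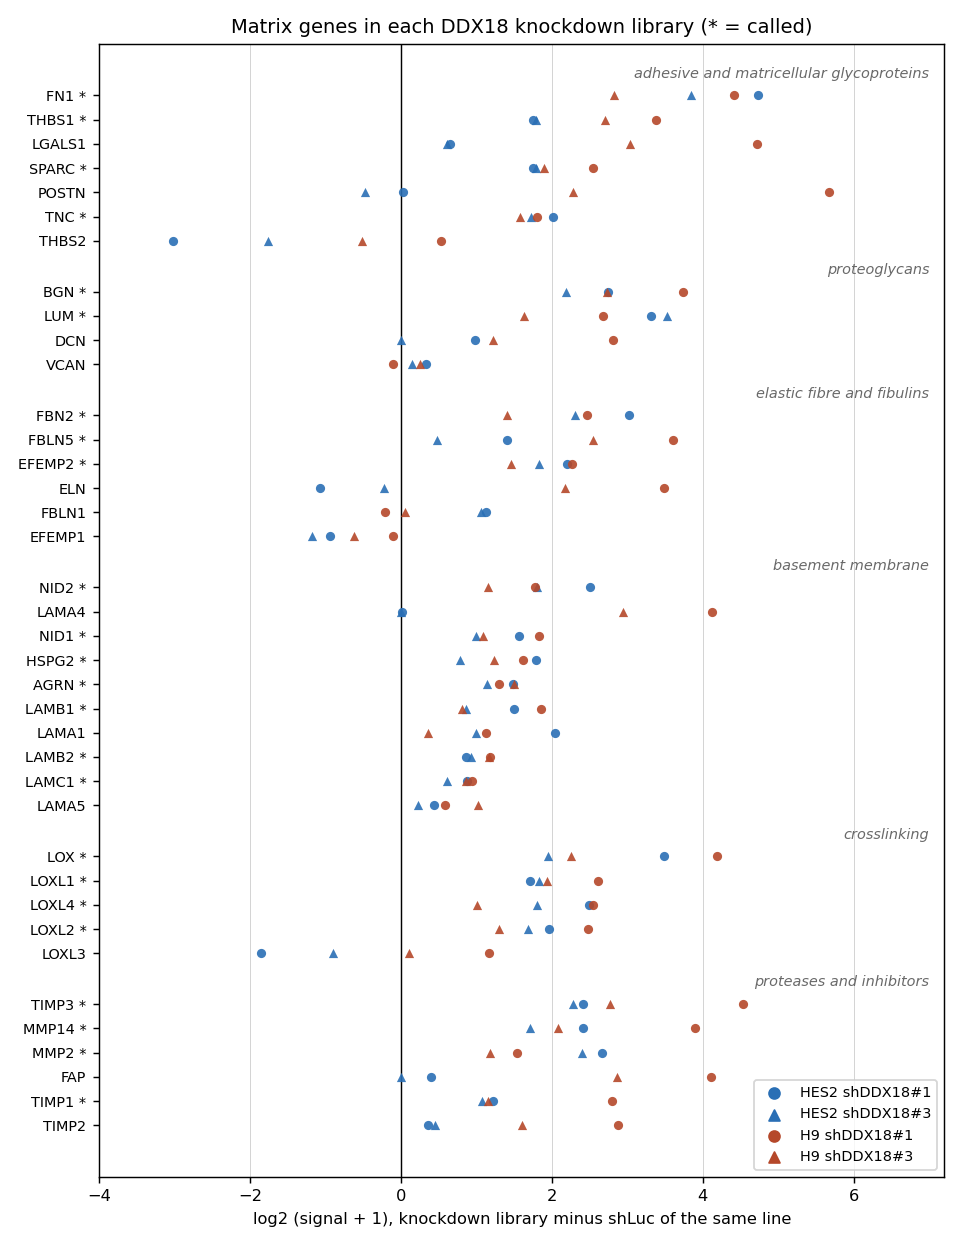
Each of the 38 matrix genes (rows, by role) as log2(signal + 1) in a knockdown library minus the shLuc library of the same line (horizontal axis), 1 point per knockdown library, blue for HES2 and red for H9, circles for shDDX18#1 and triangles for shDDX18#3. An asterisk marks the 24 genes called higher. Most points lie right of 0, and POSTN, LAMA4, FAP, ELN and LGALS1 have their H9 points far to the right of their HES2 points.

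Together the members held 3.96% and 2.43% of reads in HES2 shDDX18#1 and shDDX18#3, against 0.513% in HES2 shLuc. In H9 they held 6.63% and 2.83% with the same hairpins, against 0.725% in H9 shLuc. Most of that was FN1, the gene of fibronectin, the dimeric glycoprotein that cells assemble into fibrils through integrins. FN1 alone took 71.8% and 64.4% of member reads in the HES2 knockdown libraries, against 20.9% in HES2 shLuc, and 71.8% and 58.7% in those of H9, against 33.1% in H9 shLuc. Without FN1, the other members still held 1.12% and 0.866% of reads in the HES2 knockdown libraries, against 0.405% in HES2 shLuc, and 1.87% and 1.17% in those of H9, against 0.485% in H9 shLuc.

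**Figure D2:**
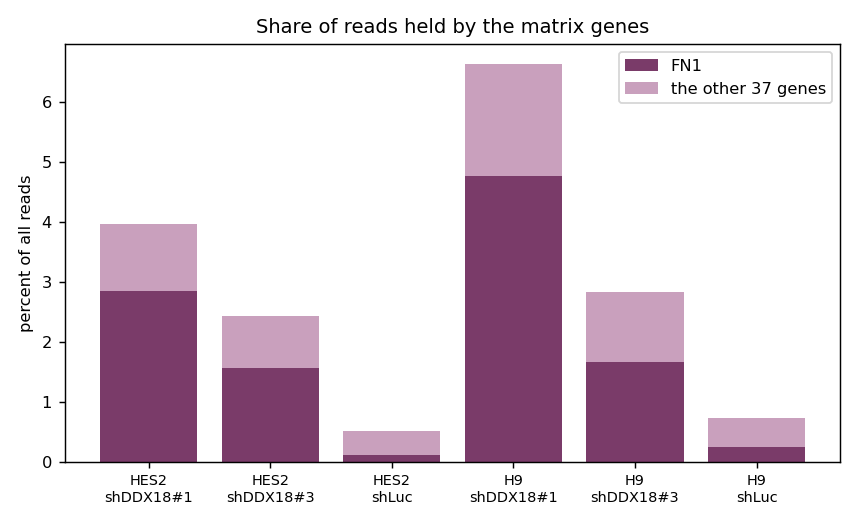
Percent of all reads in each library held by FN1 (dark) and by the other 37 matrix genes (light), for HES2 on the left and H9 on the right. The share was 3.96% and 2.43% in the HES2 knockdown libraries against 0.513% in HES2 shLuc, and 6.63% and 2.83% in those of H9 against 0.725% in H9 shLuc.

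Divided by the length of the principal transcript, FN1 had the highest level per kilobase of the 38 genes in all 6 libraries. SPARC ranked 2 in all 4 knockdown libraries, against 4 in HES2 shLuc and 2 in H9 shLuc. FBLN1 and VCAN, which were not called, ranked lower in the knockdown libraries than in the control of the same line. FBLN1 ranked 4 and 3 in the HES2 knockdown libraries, against 2 in HES2 shLuc, and 18 and 11 in those of H9, against 3 in H9 shLuc. The per-kilobase ratio of FN1 to LAMC1, the laminin gamma chain of most basement membranes, was 61.1 and 40.2 in the HES2 knockdown libraries, against 4.26 in HES2 shLuc. In H9 it was 74.9 and 26.3, against 6.76 in H9 shLuc.

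Among the 7 adhesive and matricellular glycoproteins, FN1, SPARC, TNC and THBS1 rose and POSTN, LGALS1 and THBS2 were not called. The signal of FN1 (ENSG00000115414) was 27157 with shDDX18#1 and 14763 with shDDX18#3 in HES2, against 1025 in HES2 shLuc, and 51833 with shDDX18#1 and 17115 with shDDX18#3 in H9, against 2424 in H9 shLuc. All 4 knockdown libraries lay far above both controls. The mean was 27717 ± 16952 in the knockdown and 1725 ± 989 in shLuc (SD, n = 4 and 2), a log2 fold change of 3.95 (SE 0.48, limma adjusted p = 0.00347). SPARC, a collagen-binding matricellular protein, stood at 815 and 839 in the HES2 knockdown libraries (shDDX18#1, shDDX18#3), against 242 in HES2 shLuc, and 3041 and 1923 in those of H9, against 518 in H9 shLuc, a change of 1.99 (SE 0.22, limma adjusted p = 0.00274). In that gene the HES2 libraries were lower than the H9 library of the same hairpin throughout, yet both lines shifted. TNC encodes tenascin C, an antiadhesive glycoprotein of embryonic and wounded tissue. Its signal was 661 with shDDX18#1 and 542 with shDDX18#3 in HES2, against 163 in HES2 shLuc, and 1129 with shDDX18#1 and 960.2 with shDDX18#3 in H9, against 323 in H9 shLuc, and the change of 1.78 (SE 0.16, limma adjusted p = 0.00171) had the smallest p of the whole group. THBS1, the gene of thrombospondin 1, which binds CD47 and can activate latent TGF-beta, had 255 and 263 in the HES2 knockdown libraries (shDDX18#1, shDDX18#3), against 75.3 in HES2 shLuc, and 1249 and 779 in those of H9, against 119 in H9 shLuc, a change of 2.4 (SE 0.29, limma adjusted p = 0.00344). Without the HES2 shLuc library FN1 lost its call (adjusted p = 0.0857), and SPARC, TNC and THBS1 kept theirs whichever library was left out.

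The other 3 glycoproteins had different values in each line. POSTN, which encodes periostin, a matricellular protein of mesenchyme, had 1667 and 158 with shDDX18#1 and shDDX18#3 in H9, against 31.8 with shLuc. In HES2 it was near the floor, at 1.61 and 0.835 with shDDX18#1 and shDDX18#3, against 1.56 with shLuc. The value in H9 shDDX18#1 exceeded every other library by far. LGALS1, the gene of galectin 1, a lectin that binds matrix glycans, had 331 and 102 with shDDX18#1 and shDDX18#3 in H9, against 11.6 with shLuc, while HES2 held 5.47 and 5.29 with shDDX18#1 and shDDX18#3 in HES2, against 3.13 with shLuc. LGALS1 was called higher by edgeR. By limma it was called once the HES2 shLuc library was left out and on H9 libraries only, fits with 1 shLuc library. The authors' deposited table gives it a false discovery rate of 0.00291. THBS2, a relative of THBS1 that inhibits angiogenesis, had the lowest estimate of a single line, -2.39 in HES2. Its signal was 6.76 and 17.5 with shDDX18#1 and shDDX18#3 in HES2, against 61.9 with shLuc, whereas H9 had 132 and 63.2 with shDDX18#1 and shDDX18#3 in H9, against 90.8 with shLuc. Over all libraries its change was -1.19 (SE 0.57, limma adjusted p = 0.183) and not called. The authors' deposited table lists THBS2 with a log2 fold change of -1.25 and a false discovery rate of 0.0468, the only member below 0 with a rate under 0.05 there, beside 9.42% of all its genes. Above 0, 30 members have such a rate in the authors' deposited table, beside 13.5% of all its genes.

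Of the 4 small and large proteoglycans, BGN and LUM rose and DCN and VCAN were not called. BGN encodes biglycan, a small leucine-rich proteoglycan. It stood at 133 with shDDX18#1 and 89.9 with shDDX18#3 in HES2, against 19.0 in HES2 shLuc, and 599 with shDDX18#1 and 298 with shDDX18#3 in H9, against 44.0 in H9 shLuc. The groups did not overlap, and the change was 2.85 (SE 0.31, limma adjusted p = 0.00267). LUM, the gene of lumican, which spaces collagen fibrils, had 55.3 and 64.3 in the HES2 knockdown libraries (shDDX18#1, shDDX18#3), against 4.69 in HES2 shLuc, and 74.7 and 35.7 in those of H9, against 10.8 in H9 shLuc. Here HES2 moved further than H9, with an overall change of 2.79 (SE 0.36, limma adjusted p = 0.00408), and the call was lost without the HES2 shLuc library (adjusted p = 0.069). DCN, the gene of decorin, a collagen-binding relative of biglycan, was measured almost only in H9, at 44.9 and 14.3 with shDDX18#1 and shDDX18#3 in H9, against 5.54 with shLuc. HES2 held 3 reads with shDDX18#1 and 0 with shDDX18#3, against 0 with shLuc, which is at or under the floor. DESeq2 called DCN higher, and the authors' deposited table gives it a false discovery rate of 0.00554. VCAN, the gene of versican, the large hyaluronan-binding proteoglycan, was abundant, and its libraries lay close together. Its signal was 1155 and 1015 in the HES2 knockdown libraries (shDDX18#1, shDDX18#3), against 918 in HES2 shLuc, and 771 and 986 in those of H9, against 826 in H9 shLuc, a change of 0.16 (SE 0.17, limma adjusted p = 0.559).

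The 6 elastic fibre genes and fibulins split evenly, with FBN2, EFEMP2 and FBLN5 rising. FBN2 encodes fibrillin 2, the fibrillin that is prominent in fetal microfibrils. Its signal was 1325 with shDDX18#1 and 809.8 with shDDX18#3 in HES2, against 163 in HES2 shLuc, and 926 with shDDX18#1 and 443.8 with shDDX18#3 in H9, against 168 in H9 shLuc. Both lines had nearly the same control level and HES2 reached higher, with a change of 2.3 (SE 0.33, limma adjusted p = 0.00577). EFEMP2, also called fibulin 4, recruits lysyl oxidase to elastin. Its levels were 93.0 and 71.6 in the HES2 knockdown libraries (shDDX18#1, shDDX18#3), against 19.4 in HES2 shLuc, and 63.7 and 36.0 in those of H9, against 12.5 in H9 shLuc, a change of 1.94 (SE 0.24, limma adjusted p = 0.00387). FBLN5, which organises elastin on microfibrils, had 78.4 and 37.3 with shDDX18#1 and shDDX18#3 in H9, against 5.54 with shLuc. In HES2 the values were smaller, 9.33 and 4.46 with shDDX18#1 and shDDX18#3 in HES2, against 2.91 with shLuc. Its change of 2.01 (SE 0.53, limma adjusted p = 0.0388) was the least secure of the group. Without the H9 shLuc library it was 0.94, without the HES2 shLuc library 3.08, and either way, as without HES2 shDDX18#1, it was not called. EFEMP2 and FBN2 lost their calls without the HES2 shLuc library, with limma adjusted p = 0.0709 and 0.1.

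The remaining elastic fibre members were not called. ELN, the gene of elastin itself, had 25.7 and 9.73 with shDDX18#1 and shDDX18#3 in H9, against 1.38 with shLuc. In HES2 it stood at 0.644 and 1.95 with shDDX18#1 and shDDX18#3 in HES2, against 2.46 with shLuc, so the estimates of the lines had opposite signs. FBLN1 had 465 and 442 with shDDX18#1 and shDDX18#3 in HES2, against 212 with shLuc, and in H9 235 and 284 with shDDX18#1 and shDDX18#3 in H9, against 272 with shLuc. That gene was higher in HES2 alone, by 1.091 on the log2 scale, against -0.08 in H9. EFEMP1, or fibulin 3, was below its own control in all 4 knockdown libraries. It had 7.08 and 5.85 in the HES2 knockdown libraries (shDDX18#1, shDDX18#3), against 14.5 in HES2 shLuc, and 10.2 and 6.81 in those of H9, against 11.1 in H9 shLuc, a change of -0.72 (SE 0.3, limma adjusted p = 0.135), which is not called.

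All 10 basement membrane genes had estimates above 0, and 7 rose: AGRN, LAMB2, NID2, NID1, LAMC1, HSPG2 and LAMB1. Their median log2 fold change was 1.3, within a range of 0.57 to 1.81. AGRN encodes agrin, a heparan sulfate proteoglycan. Its signal was 708 with shDDX18#1 and 554 with shDDX18#3 in HES2, against 252 in HES2 shLuc, and 802 with shDDX18#1 and 921 with shDDX18#3 in H9, against 326 in H9 shLuc, a change of 1.35 (SE 0.16, limma adjusted p = 0.0031). Unlike most members, it was highest in H9 shDDX18#3. LAMB2, a laminin beta chain of mature basement membranes, had 131 and 138 in the HES2 knockdown libraries (shDDX18#1, shDDX18#3), against 71.8 in HES2 shLuc, and 197 and 195 in those of H9, against 86.4 in H9 shLuc, a change of 1.03 (SE 0.14, limma adjusted p = 0.00442). The hairpins gave nearly the same value within each line. NID1 and NID2 are the nidogens, which link laminin to collagen IV. NID2 had 51.5 and 31.5 in the HES2 knockdown libraries (shDDX18#1, shDDX18#3), against 8.27 in HES2 shLuc, and 50.6 and 32.7 in those of H9, against 14.1 in H9 shLuc, a change of 1.81 (SE 0.29, limma adjusted p = 0.00833). In GENCODE 29, 30.0% of its exon bases overlap RTRAF on the other strand, and the library kit does not record strand, so reads of the pair cannot be told apart. NID1 had 219.8 and 147 in the HES2 knockdown libraries (shDDX18#1, shDDX18#3), against 73.8 in HES2 shLuc, and 212 and 126 in those of H9, against 58.7 in H9 shLuc, a change of 1.37 (SE 0.24, limma adjusted p = 0.0116). HSPG2, the gene of perlecan, averaged 705 ± 206 in the knockdown and 265 ± 16.5 in shLuc, a change of 1.35 (SE 0.27, limma adjusted p = 0.0169), and 11.7% of its exon bases overlap LDLRAD2 on the other strand.

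The laminin chains shifted by different amounts. LAMB1, the beta chain of embryonic laminins, had 499.7 with shDDX18#1 and 323 with shDDX18#3 in HES2, against 177 in HES2 shLuc, and 657 with shDDX18#1 and 319 with shDDX18#3 in H9, against 182 in H9 shLuc, a change of 1.25 (SE 0.29, limma adjusted p = 0.0268). LAMC1 averaged 538 ± 157 in the knockdown and 299 ± 83.0 in shLuc, a change of 0.82 (SE 0.15, limma adjusted p = 0.0123). Among the alpha chains none was called by limma in the main comparison, while DESeq2 called LAMA1 and LAMA5 higher and edgeR called LAMA4 higher. The authors' deposited table gives false discovery rates of 0.00465 for LAMA1, 0.0152 for LAMA4 and 0.0721 for LAMA5. LAMA1, the alpha chain of the earliest embryonic laminin, averaged 313 ± 147 in the knockdown and 132 ± 9.91 in shLuc, a change of 1.13 (SE 0.33, limma adjusted p = 0.055). LAMA5, the alpha chain of a laminin used as a substrate for pluripotent cells, averaged 469 ± 94.2 in the knockdown and 312 ± 20.1 in shLuc, a change of 0.57 (SE 0.18, limma adjusted p = 0.0729). LAMA4, an alpha chain of endothelial and mesenchymal laminins, was the exception in pattern. It had 147 and 63.9 with shDDX18#1 and shDDX18#3 in H9, against 7.48 with shLuc, and in HES2 2.25 and 2.23 with shDDX18#1 and shDDX18#3 in HES2, against 2.24 with shLuc, with no step between hairpins. Of the 7 basement membrane calls none remained without the HES2 shLuc library, and AGRN and NID2 remained without the H9 shLuc library. LAMB1 was also lost without HES2 shDDX18#1, and LAMA1 gained a call without H9 shDDX18#3.

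Of the 5 lysyl oxidases, which oxidise lysines of collagen and elastin for crosslinking, LOX, LOXL1, LOXL2 and LOXL4 rose and LOXL3 was not called. LOXL1 had 59.9 with shDDX18#1 and 65.2 with shDDX18#3 in HES2, against 17.7 in HES2 shLuc, and 122 with shDDX18#1 and 76.2 with shDDX18#3 in H9, against 19.1 in H9 shLuc, a change of 2.02 (SE 0.22, limma adjusted p = 0.00284). Its control level was nearly the same in both lines, and with TNC it kept its call in all 21 alternatives. For LOXL1, 9.21% of exon bases overlap an antisense transcript. LOXL2, which can crosslink collagen IV, had 224 and 185 in the HES2 knockdown libraries (shDDX18#1, shDDX18#3), against 57.0 in HES2 shLuc, and 476 and 210.1 in those of H9, against 85.0 in H9 shLuc, a change of 1.85 (SE 0.29, limma adjusted p = 0.00758). LOX itself had the largest change of the family. Its signal was 50.2 and 16.7 in the HES2 knockdown libraries (shDDX18#1, shDDX18#3), against 3.58 in HES2 shLuc, and 163 and 42.1 in those of H9, against 8.03 in H9 shLuc, a change of 2.97 (SE 0.56, limma adjusted p = 0.0148). In both lines shDDX18#1 gave the higher value of the hairpins. LOXL4 was low, with 10.9 with shDDX18#1 and 6.40 with shDDX18#3 in HES2, against 1.12 in HES2 shLuc, and 28.99 with shDDX18#1 and 9.40 with shDDX18#3 in H9, against 4.15 in H9 shLuc, a change of 1.96 (SE 0.44, limma adjusted p = 0.0247). LOXL3 had estimates of opposite sign in the lines. It had 14.2 and 28.4 with shDDX18#1 and shDDX18#3 in HES2, against 53.9 with shLuc, and in H9 84.1 and 39.9 with shDDX18#1 and shDDX18#3 in H9, against 36.8 with shLuc, with 14.3% of its exon bases shared with HTRA2 on the other strand. LOX, LOXL2 and LOXL4 lost their calls without either shLuc library, with adjusted p up to 0.154, 0.0938 and 0.186, and LOXL4 also without HES2 shDDX18#1.

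Among the 6 proteases and inhibitors, the gelatinase MMP2, the membrane-bound collagenase MMP14 and the inhibitors TIMP1 and TIMP3 rose, while TIMP2 and FAP were not called. MMP2 had 543 with shDDX18#1 and 452 with shDDX18#3 in HES2, against 85.2 in HES2 shLuc, and 689.7 with shDDX18#1 and 542 with shDDX18#3 in H9, against 238 in H9 shLuc, a change of 1.94 (SE 0.26, limma adjusted p = 0.00447). The H9 control was higher than that of HES2, and the knockdown levels were alike. MMP14, which activates MMP2 at the cell surface together with TIMP2, had 704 and 434 in the HES2 knockdown libraries (shDDX18#1, shDDX18#3), against 132 in HES2 shLuc, and 2037 and 579 in those of H9, against 136 in H9 shLuc, a change of 2.52 (SE 0.46, limma adjusted p = 0.0136). The control levels were nearly equal and H9 shDDX18#1 stood apart. TIMP3, the inhibitor that stays bound to the matrix, had 55.7 with shDDX18#1 and 50.4 with shDDX18#3 in HES2, against 9.61 in HES2 shLuc, and 1172 with shDDX18#1 and 345 with shDDX18#3 in H9, against 49.8 in H9 shLuc, a change of 3.0 (SE 0.46, limma adjusted p = 0.00735). TIMP1, a soluble inhibitor, had 92.7 and 83.5 in the HES2 knockdown libraries (shDDX18#1, shDDX18#3), against 39.1 in HES2 shLuc, and 382 and 122 in those of H9, against 54.3 in H9 shLuc, a change of 1.56 (SE 0.4, limma adjusted p = 0.0367). TIMP2 averaged 191 ± 198 in the knockdown and 50.2 ± 18.2 in shLuc, a change of 1.32 (SE 0.44, limma adjusted p = 0.0776). Fibroblast activation protein, FAP, a serine protease, had 30.6 and 12.3 with shDDX18#1 and shDDX18#3 in H9, against 0.831 with shLuc, the last of which is 3 reads. HES2 held 1 read with shDDX18#1 and 0 with shDDX18#3, against 0 with shLuc, so FAP passed the filter of at least 1 in 2 libraries through the H9 knockdown libraries alone. Both edgeR and DESeq2 called FAP higher. The authors' deposited table gives it a log2 fold change of 4.53 and a false discovery rate of 1.84e-05.

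The 4 calls among proteases and inhibitors depended on the controls. None remained without the HES2 shLuc library and MMP2 alone remained without the H9 shLuc library. TIMP1 was also lost without either HES2 knockdown library, and TIMP2 gained a call without H9 shDDX18#1. The per-kilobase ratio of MMP14 to TIMP2 was 14.4 and 8.30 in HES2 shDDX18#1 and shDDX18#3, against 3.46 in HES2 shLuc, and 4.24 and 2.91 in H9 shDDX18#1 and shDDX18#3, against 2.11 in H9 shLuc. For MMP14 to TIMP3 the ratio was 15.6 and 10.6 in the HES2 knockdown libraries, against 16.9 in HES2 shLuc, and 2.14 and 2.07 in those of H9, against 3.37 in H9 shLuc. These ratios of enzyme to inhibitor were not tested.

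**Figure D3:**
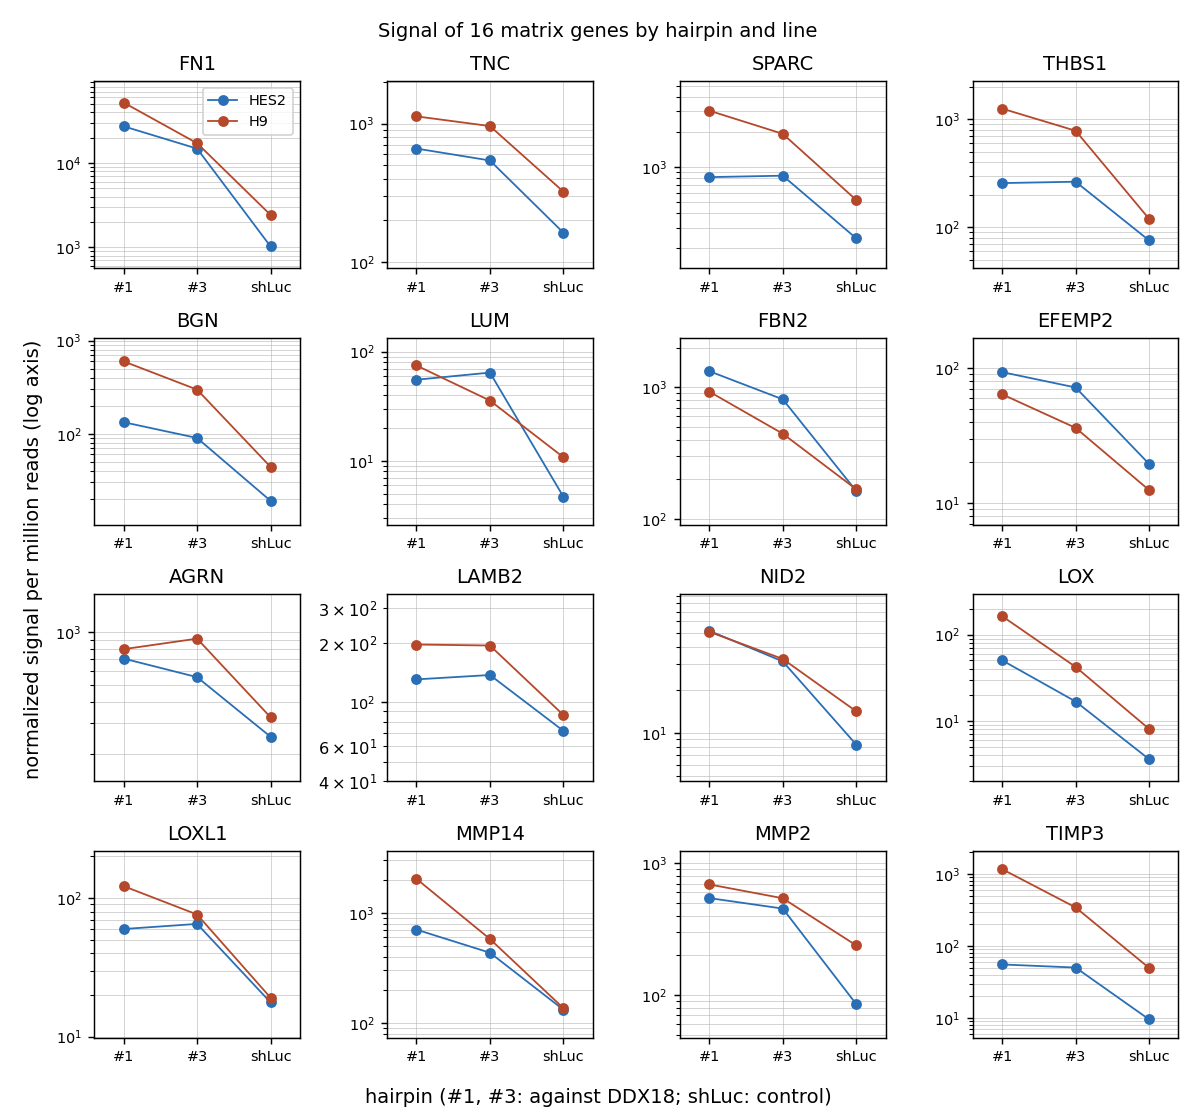
Normalized signal (log axis) of 16 matrix genes in each library, by hairpin from shDDX18#1 and shDDX18#3 on the left to shLuc on the right, with HES2 in blue and H9 in red and lines joining the libraries of a cell line. In every panel the shLuc value of a line is below both of its knockdown values, and FBN2 and EFEMP2 have HES2 above H9 with both hairpins while TIMP3, BGN and THBS1 have H9 well above HES2.

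Matrix genes outside the list were counted in the same fit, in which 9.6% of all genes tested rose and 6.26% fell. Of 38 other glycoproteins tested, 14 rose and 1 fell. TGFBI, an integrin-binding matrix protein, had 331 and 301 in the HES2 knockdown libraries (shDDX18#1, shDDX18#3), against 26.2 in HES2 shLuc, and 1363 and 370.2 in those of H9, against 54.5 in H9 shLuc, a change of 3.61 (SE 0.42, limma adjusted p = 0.00308). LTBP2, a microfibril protein, changed by 3.56 (SE 0.42, limma adjusted p = 0.0031), NTN4, a netrin of basement membranes, by 2.51 (SE 0.3, limma adjusted p = 0.00337) and MATN3, a matrilin, by 1.54 (SE 0.2, limma adjusted p = 0.00408). FBN3, the third fibrillin gene, was the 1 that fell, with 57.6 and 80.5 in the HES2 knockdown libraries (shDDX18#1, shDDX18#3), against 113 in HES2 shLuc, and 42.5 and 66.1 in those of H9, against 112 in H9 shLuc, a change of -0.9 (SE 0.22, limma adjusted p = 0.0332). Of 9 other proteoglycans 1, SPOCK1, rose. Of 35 other remodelers 18 rose. BMP1, which processes procollagens and prolysyl oxidase, changed by 2.35 (SE 0.27, limma adjusted p = 0.00292), and the matrix proteases ADAMTS9 and ADAMTS12 by 2.73 (SE 0.32, limma adjusted p = 0.0031) and 2.71 (SE 0.32, limma adjusted p = 0.00313).

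Each hairpin was also set against shLuc by itself, with the same control libraries in both comparisons. With shDDX18#1, 28 members rose, beside 14.4% of all genes, and with shDDX18#3, 22 rose, beside 6.96% of all genes. By limma, edgeR and DESeq2 no member fell with either hairpin, beside 13.4% and 3.69% of all genes in limma, and at an unadjusted p under 0.05 limma had 0 lower with shDDX18#1 and 1, EFEMP1, with shDDX18#3. The median log2 fold change of the members was 2.08 with shDDX18#1 and 1.42 with shDDX18#3. FN1 changed by 4.57 (SE 0.27, limma adjusted p = 6.76e-05) with shDDX18#1 and by 3.33 (SE 0.27, limma adjusted p = 0.000537) with shDDX18#3. The corresponding changes of LOX were 3.83 (SE 0.23, limma adjusted p = 6.76e-05) and 2.1 (SE 0.23, limma adjusted p = 0.00161). The DDX18 transcript left was 24.5% and 37.6% of the line's own control in HES2 shDDX18#1 and shDDX18#3, and 12.6% and 31.0% in H9. With no replicate block for the cell line, 17 rose with shDDX18#1, beside 6.32% of all genes, and 0 with shDDX18#3, beside 0.09%. The count for shDDX18#3 was also 5 in limma without the trend, beside 1.1% of all genes, 0 without its HES2 library, beside 0.132%, and 7 without its H9 library, beside 0.682%.

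Set directly against shDDX18#3, shDDX18#1 gave higher estimates for 33 of 38 members, with a median of 0.63 beside -0.02 over all genes, and 25 were higher with shDDX18#1 in both lines, beside 29.9% of all genes. None was called by limma (0.0% of all genes). At an unadjusted p under 0.05, 16 were higher, beside 6.46% of all genes, and 0 lower. By edgeR 1 member was higher, beside 0.118% of all genes, and by DESeq2 6, beside 0.721% of the genes to which it gave an adjusted p. The smallest p-values belonged to LOX, at 1.73 (SE 0.23, limma adjusted p = 0.0584), LAMB1, at 0.83 (SE 0.15, limma adjusted p = 0.0968), NID1, at 0.66 (SE 0.14, limma adjusted p = 0.133), and FN1, at 1.24 (SE 0.27, limma adjusted p = 0.136). Without the HES2 shLuc library 12 members were called higher with shDDX18#1, beside 2.42% of all genes, and without that of H9 also 12, beside 2.38%.

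The lines were compared for their response. A mean rise of at least 2-fold was seen for 23 members in HES2, beside 10.1% of all genes, and for 30 in H9, beside 11.9%. Both lines had a mean rise of at least 2-fold for 21 members, beside 5.74% of all genes. H9 alone did for 9, beside 6.13%: POSTN, LGALS1, DCN, FBLN5, ELN, LAMA4, LAMB2, TIMP2 and FAP. HES2 alone did for FBLN1 and LAMA1, beside 4.34%. The 6 others, THBS2, VCAN, EFEMP1, LAMA5, LAMC1 and LOXL3, reached it in neither line. The interaction of knockdown and line was not called for any member by limma, edgeR or DESeq2, nor by limma for any gene. At an unadjusted p under 0.05, the difference HES2 minus H9 was above 0 for 2 members (FBLN1 and MMP2), beside 1.92% of all genes, and below 0 for 10, beside 2.51%. The smallest p-values were those of LAMA4, with HES2 minus H9 at -3.53 (SE 0.74, limma adjusted p = 0.935), FBLN1, at 1.17 (SE 0.31, limma adjusted p = 1.0), FAP, at -3.29 (SE 0.87, limma adjusted p = 1.0), and ELN, at -3.48 (SE 0.94, limma adjusted p = 1.0). These differences between lines did not pass adjustment over all genes tested. With 1 shLuc library in each line, the test cannot settle whether the lines differ in their response.

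**Figure D4:**
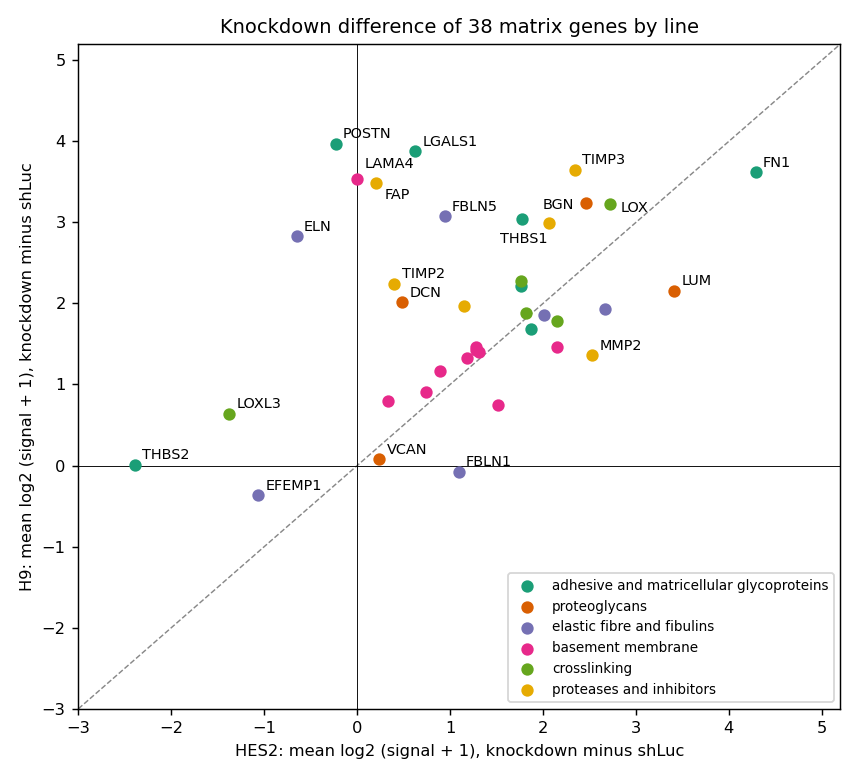
Mean log2(signal + 1) difference, knockdown minus shLuc, of each of the 38 matrix genes in HES2 (horizontal) and in H9 (vertical), coloured by role, with a dashed line of equal difference. Points near the line shifted alike in both lines, POSTN, LAMA4, FAP, LGALS1 and ELN lie far above it, and THBS2 lies furthest to the left.

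In level, HES2 was lower than H9 for 14 members over the 3 hairpins and higher for 1, EFEMP2, beside 3.98% and 1.44% of all genes, 5.42% in either direction. EFEMP2 differed by 0.7 (SE 0.15, limma adjusted p = 0.0355). The smallest p among the lower ones belonged to DCN, at -3.73 (SE 0.38, limma adjusted p = 0.00147), BGN, at -1.68 (SE 0.18, limma adjusted p = 0.00163), TIMP3, at -3.13 (SE 0.33, limma adjusted p = 0.00163), and SPARC, at -1.4 (SE 0.16, limma adjusted p = 0.00273). The value of DCN rests on HES2 libraries with at most 3 reads and depends on the pseudocount. In 24 members H9 exceeded HES2 with every hairpin, a pattern shown by 20.3% of all genes. H9 shDDX18#1 was the highest of the 6 libraries for 27 members, beside 21.3% of all genes. These line calls were sensitive to single libraries, and the members lower in HES2 numbered 1 without the HES2 shDDX18#3 library (0.521% of all genes) and 1 without that of H9 (0.47%). They numbered 23 without the HES2 shLuc library (8.03% of all genes) and 24 without that of H9 (7.87%), and 0 to 4 members were higher with a library left out.

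Several members with a response in H9 were near the detection limit in HES2. POSTN, LAMA4, DCN, FAP and ELN had at most 11 reads in each HES2 library. Values of fibroblast markers that are not members are given side by side with these. COL1A1, the alpha 1 chain of type I collagen, had 1124 with shDDX18#1 and 749 with shDDX18#3 in HES2, against 59.5 in HES2 shLuc, and 18386 with shDDX18#1 and 6175 with shDDX18#3 in H9, against 687 in H9 shLuc. PRRX1, a mesenchymal transcription factor, had 27.0 and 18.4 in the HES2 knockdown libraries (shDDX18#1, shDDX18#3), against 1.79 in HES2 shLuc, and 108 and 33.1 in those of H9, against 7.75 in H9 shLuc. DDR2, a collagen receptor of fibroblasts, had 9.33 with shDDX18#1 and 4.46 with shDDX18#3 in HES2, against 1.34 in HES2 shLuc, and 90.2 with shDDX18#1 and 27.2 with shDDX18#3 in H9, against 2.77 in H9 shLuc. Of all 20 fibroblast markers, 16 were above HES2 shLuc in both HES2 knockdown libraries, THY1 and S100A4 were below it in both, and COL6A1 and COL6A2 were above it in 1 of them. In H9, 18 were above H9 shLuc in both knockdown libraries, and PDGFRA and S100A4 in 1. TWIST2 had 2.25 and 1.67 in the HES2 knockdown libraries (shDDX18#1, shDDX18#3), against 1.56 in HES2 shLuc. In H9 it had 11.8 and 6.16, against 1.94 in H9 shLuc, and it was not called. THY1, a fibroblast surface protein also present on pluripotent cells, had 100.4 and 177 in the HES2 knockdown libraries (shDDX18#1, shDDX18#3), against 325 in HES2 shLuc, and 296 and 263 in those of H9, against 231 in H9 shLuc and was not called. Whether cells of that type account for the H9 values was not tested.

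**Figure D5:**
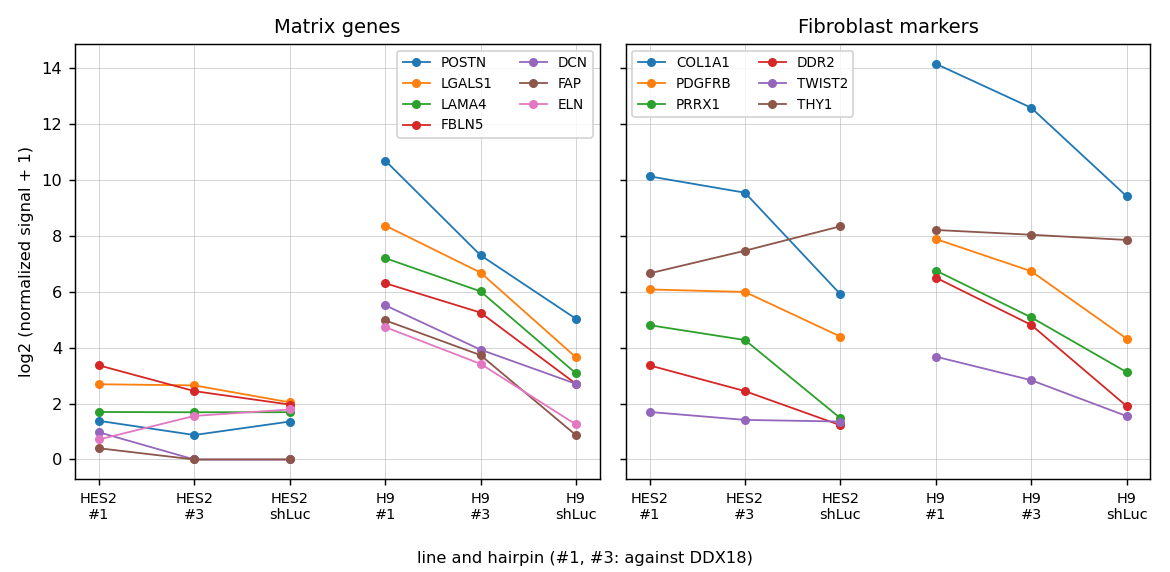
Log2(normalized signal + 1) of 7 matrix genes (left) and of 6 fibroblast markers that are not members (right) in each library, HES2 left of H9 and the hairpins from shDDX18#1 to shLuc within each line. POSTN, LGALS1, LAMA4, DCN, FAP and ELN step up in H9 and stay low in HES2, as does TWIST2 among the fibroblast markers. COL1A1, PDGFRB, PRRX1 and DDR2 step up in both lines, and THY1 is lower with both hairpins than with shLuc in HES2.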

How the data were processed

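Libraries of 6 samples were made with a TruSeq RNA kit, per the labels' protocols, which does not record strand. Per the submitters' processing notes, hg19 and the tools edgeR 3.26.8, HTSeq 0.11.2, SAMtools 1.9 and Bowtie2 2.3.4.3 are named, and their roles are not. The authors deposited 1 table that holds the normalized signal in each library and, for knockdown against shLuc, log2 values (fold change and abundance), a likelihood ratio score, and p-values with false discovery rates. Deposited signal came out as whole reads for 100% of values (tolerance 0.001), so it is reads per 1e+06 of effective library size. Neither the deposited score nor the abundance was used here.

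Comparisons were fitted on log2(signal + 1), for 17768 genes with a signal of at least 1 in at least 2 libraries, which all 38 members passed, by limma-trend (limma 3.58.1, R 4.3.3) with Benjamini-Hochberg adjustment over all of them. Cell line was a block (arm, for HES2 against H9). The 6 libraries share 1 estimate of spread. Replicate numbers mark the cell line, and deviations of same-line libraries correlated at 0.654, 0.363 and 0.454. Counts recovered from the deposited signal went into edgeR 4.0.16 and DESeq2 1.42.0 as alternatives. The steps were tested on simulated data. Floors of 3 reads cover counting error only. Levels per kilobase used the longest principal transcript in GENCODE 29 on GRCh38, and no gene position on hg19 was used here.

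The members, role groups, other lists and tests were chosen with earlier results of these data known. Values in every library were given for up to 4 members of each role group with the smallest p in knockdown minus shLuc, members below 0 there, and the 4 with the smallest p in each comparison of hairpins or lines. POSTN and LGALS1 were chosen after seeing their values.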

Additional observations from a re-analysis of the deposited data

Results flagged for a closer look

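Of the 38 matrix genes, 4 had 1 of the 4 knockdown libraries far from the others. The gap to its nearest neighbour took up most of their range (Dixon's test at the 95% level). In each case that library was H9 shDDX18#1, with a signal of 1667 for POSTN, 476 for LOXL2, 2037 for MMP14 and 382 for TIMP1. By chance the test flags about 1 of 20 groups of like libraries. These libraries differ in line and hairpin, so that rate need not apply. No explanation was tested.

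A pair of members, ELN and LOXL3, moved in opposite directions in the lines, in both knockdown libraries of each. In HES2, ELN lay near the floor of 3 reads, with 2 and 7 reads with shDDX18#1 and shDDX18#3, against 11 with shLuc. Its H9 shLuc library held 5 reads. For ELN the effect in HES2 minus that in H9 was -3.48 on the log2 scale, and for LOXL3 it was -2.02. The test of this difference was -3.48 (SE 0.94, limma adjusted p = 1.0) for ELN and -2.02 (SE 0.74, limma adjusted p = 1.0) for LOXL3, so neither passed.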

How the results depend on the processing

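Alternatives covered the pseudocount, the filter, the scaling, the prior (no trend, robust), no replicate block, edgeR, DESeq2 and each library left out. Fits on 1 line were added after the data were seen. Members that rose with knockdown numbered 24, 15 with no replicate block and 20 to 25 with a knockdown library left out. Fewer rose without a shLuc library, as given above. 0 members fell, except on HES2 libraries only, a fit with 1 shLuc library. The estimates there were -2.39 for THBS2 and -1.38 for LOXL3, the members that fell. Of the 24, 2 kept the call in all 21 alternatives, 6 lost it in 1, 10 in 2 or 3 and 6 in more. Over all genes 1706 rose and 1113 fell. The counts were 886 and 342 without the trend, 790 and 409 with no replicate block and 438 and 56 on H9 libraries only. With a library left out 185 to 1986 rose and 7 to 1604 fell.

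With shDDX18#1, 28 rose and 17 with no replicate block, and 0 to 2 fell with a library left out. With shDDX18#3, 22 rose, 5 without the trend and 0 with no replicate block. With a library left out 0 to 30 rose and 0 to 2 fell. For shDDX18#1 minus shDDX18#3, 0 were called, 1 with quantile normalization, 1 with the robust prior, 1 by edgeR, 6 by DESeq2 and 0 to 12 with a library left out. For HES2 minus H9, 1 rose, 0 without the trend, with no replicate block or by DESeq2, and 0 to 4 with a library left out. There 14 fell, 1 without the trend, 6 with the robust prior, 0 with no replicate block and 1 to 24 with a library left out.

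Signs turned for 5 uncalled members. With a library left out, POSTN ran from -0.23 to 3.97, ELN from -0.65 to 2.83, THBS2 from -2.39 to 0.0089, FBLN1 from -0.078 to 1.091 and LOXL3 from -1.38 to 0.64. On HES2 libraries only the change was -0.23 for POSTN and -0.65 for ELN, and on H9 libraries only 0.0089 for THBS2, -0.078 for FBLN1 and 0.64 for LOXL3. The cause was not tested. The interaction could not be estimated without a shLuc library. A library left out, or a fit on 1 line, leaves some arms with 1 library, which is assumed to vary like the others. Depth limits genes near the floor of 3 reads, such as DCN and FAP in HES2.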
